A study of Mus musculus with 50 samples.

Results

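The 10 imprinted genes described here were Mest, Igf2, Plagl1, Peg3, Dlk1, Grb10, Igf2r, H19, Cdkn1c and Meg3. They were chosen by name, and each had 1 row among the 11879 gene rows of the expression table. The table held 50 single mouse cells of 1 group, iRunx1-iHECs, which are hemogenic endothelial cells (the endothelium from which blood arises) differentiated in vitro from embryonic stem cells. The stem cells were of the C57BL/6 strain and carried a Runx1 cassette in the Rosa26 locus that doxycycline switches on. Doxycycline was added during differentiation and before the cells were sorted as CD31+CD41lowCD45-c-kit+CD201high. The stem cells had been kept in medium with LIF and inhibitors of MEK and GSK3. Clones were picked after drug selection, and the sources used here do not say how many clones or cultures gave these cells. The 50 cells are therefore 1 sample with no second group, and all values below are descriptions over cells with no test. Titles carry a first number from 1 to 4, with 11, 14, 13 and 12 cells, whose meaning the labels do not give. A cell is called by its 2 title numbers, as in cell 4-6.

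The endothelial label was set beside a chosen list of markers, Pecam1, Cdh5, Esam, Tek, Kdr, Egfl7, Emcn, Cd34, Eng and Tie1. The genes of the sort markers c-kit and CD201 were not among the lists read here. All 10 endothelial markers passed TPM 1 in 25 cells or more, and 8 of them in every cell. TPM is a length-scaled share of the transcripts of a cell, and a gene was counted as expressed above TPM 1. The pan-leukocyte gene Ptprc and the blood genes Spn, Myb and Cd48 were listed at 0 in all cells, while Laptm5 was above TPM 1 in 48 cells and Itga2b, which encodes the sort marker CD41, in 40. These were the 2 of 10 blood markers that reached 25 cells. The others were Sfpi1, the older symbol of Spi1, in 24 cells, Coro1a in 21, Gfi1 in 17 and Vav1 in 11. None of the 8 mesenchymal rows reached 25 cells, their summed TPM lay between 0 and 84.2, and Pdgfrb, Acta2 and Postn were among those never above TPM 1. The numbers of genes above TPM 1 lay between 2400 and 8615 per cell, with a median of 6223.5. Cell 4-6 had the 2400 and the next lowest cell had 4326. Sequencing depth is unknown from TPM.

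Imprinted genes are transcribed mainly from the copy inherited from 1 parent, as marked by DNA methylation laid down in the germline at control regions. Mest, Igf2, Plagl1, Peg3 and Dlk1 are known as genes expressed from the paternal copy. Grb10, Igf2r, H19, Cdkn1c and Meg3 are known as genes expressed from the maternal copy in most tissues. Many of them act on fetal growth. Igf2 is a growth factor of the embryo, Igf2r binds and clears it, and Grb10 dampens insulin and IGF receptor signalling. The parental copy is background here, because TPM per gene does not show which copy a read came from. Imprinted genes often lie in clusters with a shared control region, and 2 pairs of such neighbours stood among the members. Igf2 lies on chromosome 7 at chr7:142650766-142666816 on the minus strand of GRCm38 and H19 at chr7:142575529-142578143 on the same strand, 72.6 kb apart. Dlk1 lies at chr12:109452823-109463336 and Meg3 at chr12:109541001-109571726, both on the plus strand and 77.7 kb apart.

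The sequences below are shown for the most abundant member and for the neighbours Dlk1 and Meg3, of which the first was found in 36 cells and the second in 0. Each is the 250 bases before a RefSeq start on GRCm38.p6, 5′ to 3′ on the strand of the gene, with CG dinucleotides in capitals because CG is the site of DNA methylation. None of these windows overlaps an annotated exon. The Mest window is chr6:30737800-30738049, the Dlk1 window chr12:109452573-109452822 and the Meg3 window chr12:109540746-109540995, all on the plus strand.
Mest: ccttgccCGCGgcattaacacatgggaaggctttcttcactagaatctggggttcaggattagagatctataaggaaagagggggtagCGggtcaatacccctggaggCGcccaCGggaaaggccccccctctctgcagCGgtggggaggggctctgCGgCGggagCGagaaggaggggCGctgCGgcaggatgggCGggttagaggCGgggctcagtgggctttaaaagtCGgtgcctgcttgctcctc
Dlk1: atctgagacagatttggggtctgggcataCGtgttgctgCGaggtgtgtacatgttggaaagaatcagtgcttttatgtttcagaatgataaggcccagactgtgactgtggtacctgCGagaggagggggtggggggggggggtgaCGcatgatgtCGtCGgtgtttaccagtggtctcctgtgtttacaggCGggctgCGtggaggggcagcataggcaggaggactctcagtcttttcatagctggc
Meg3: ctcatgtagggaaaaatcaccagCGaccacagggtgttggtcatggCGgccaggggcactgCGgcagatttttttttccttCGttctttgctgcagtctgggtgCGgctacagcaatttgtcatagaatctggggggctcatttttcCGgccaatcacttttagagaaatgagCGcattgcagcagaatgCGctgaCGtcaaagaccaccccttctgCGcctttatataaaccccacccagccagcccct
The Mest window held 14 CG, and 29.4% of 32851 such windows held as many or more. The Dlk1 window held 8 (43% of windows) and the Meg3 window 10 (37.8%), against a median of 6 over all windows. Other RefSeq starts of Mest had windows with 7 and 14 CG, and another Meg3 start had 0. Methylation was not measured, and these letters were not used to read the levels below.

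Several members host microRNAs, among them Mest, Igf2, H19 and Meg3. The miR-335 hairpin lies in an intron of Mest and the miR-675 hairpin in an exon of H19, and these are printed because Mest is the most abundant member and because a row for the miR-675 gene was measured. Capitals mark the seed, bases 2 to 8, and the 4 seeds differ.
miR-335-5p: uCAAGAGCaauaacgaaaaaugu
miR-335-3p: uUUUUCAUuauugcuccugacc
miR-675-5p: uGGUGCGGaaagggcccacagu
miR-675-3p: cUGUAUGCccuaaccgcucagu
Mature microRNAs were not measured by these libraries.

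Of the 10 members, 7 were above TPM 1 in 25 cells or more, beside 53.2% of all rows. Mest, which encodes a protein of the alpha/beta hydrolase fold, was among the most abundant transcripts of these cells. It was above TPM 1 in 50 of 50 cells (100%, exact Clopper-Pearson 95% interval 92.9% to 100%). Its TPM was 837 in the lowest cell, 7504 at the median and 16444 in the highest cell. The lowest cell was cell 4-6, which also had the fewest genes, and the second lowest cell had 1999. In 49 of 50 cells Mest was above TPM 1000. Its median ranked 2 among the 11879 rows, after the ferritin gene Ftl1 at 8304 and before the actin gene Actb at 7393. Within single cells Mest was the highest row in 15 cells and among the 10 highest in 40. It took a median of 0.777% of the listed TPM of a cell, with a range of 0.0862% to 1.71%. By first title number the 4 medians ran from 5836 to 9531.

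Igf2 was the second member by level. It too was above TPM 1 in 50 of 50 cells, at 69.0 in the lowest cell (4-7), 1043 at the median and 4273 in the highest cell (2-15). A total of 27 cells were above TPM 1000. Mest was above Igf2 in 50 of 50 cells, and the ratio of their TPM had a median of 8.51 and ran from 1.02 to 61.5. Igf2 medians by first title number ran from 563 to 1396, which is a wider spread than that of Mest in proportion to the median.

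Plagl1 encodes a zinc finger transcription factor that has been placed in a network of imprinted growth genes. It was above TPM 1 in 49 of 50 cells (98%, 89.4% to 99.9%), with 0.646 in the lowest cell (2-8), 125 at the median and 1766 in the highest cell (2-12). A total of 31 cells were above TPM 100. Mest, Igf2 and Plagl1 were together above TPM 1 in 49 of the 50 cells.

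Peg3, another zinc finger protein gene, was above TPM 1 in 37 cells (74%, 59.7% to 85.4%). Its TPM ran from 0 through a median of 34.8 to 628 (cell 3-11). There were 13 cells that did not pass TPM 1, of which 2 were at 0, while 14 cells passed TPM 100. By first title number the share of cells lay between 58.3% and 90.9%, lowest for number 4 and highest for number 1, and the median TPM between 5.26 and 88.0.

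Dlk1 encodes a transmembrane ligand-like protein of the Notch ligand family that is known from fetal progenitors. It was above TPM 1 in 36 cells (72%, 57.5% to 83.8%), with 0 in the lowest cell (3-5), 16.5 at the median and 1180 in the highest cell (1-6). TPM 1 was not passed in 14 cells and TPM 100 was passed in 19, with 8 cells between TPM 1 and 10 and 9 between 10 and 100. By first title number the medians ran from 8.60 to 60.4. The median was 29.8 without title number 4 and 33.7 without the 7 cells that had fewer than 5000 genes. Among the cells above TPM 1, the median was 109.

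**Figure D1:**
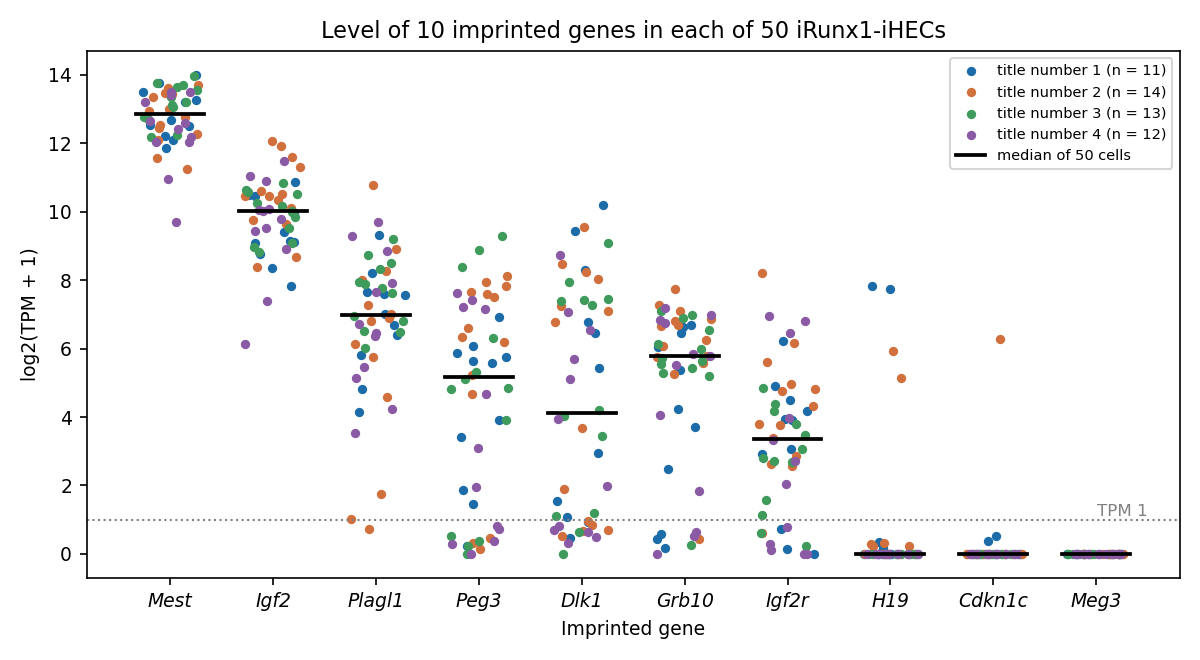
Level of each of the 10 genes, as log2(TPM + 1), in each of the 50 cells. Points are cells coloured by first title number, black bars are medians over the 50 cells and the dotted line marks TPM 1. Mest lies between 837 and 16444 TPM in every cell, Peg3 and Dlk1 fall on both sides of the line, and Meg3 is at 0 throughout.

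Of the genes known from the maternal copy, Grb10 and Igf2r were found in most cells. Grb10, an adaptor that binds the insulin and IGF1 receptors, was above TPM 1 in 42 cells (84%, 70.9% to 92.8%). Its TPM ran from 0 (cell 4-4) through a median of 54.6 to 214.5 (cell 2-12), the lowest maximum of these 7 frequent members. Igf2r, the receptor that takes IGF2 to lysosomes for degradation and delivers lysosomal enzymes, was above TPM 1 in 39 cells (78%, 64.0% to 88.5%), with a median of 9.25 and a highest value of 296, also in cell 2-12. Only 3 cells were above TPM 100. Both genes were above TPM 1 in 34 cells, and at least 1 of them in 47.

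H19, a noncoding RNA that lies beside Igf2, was above TPM 1 in 4 of 50 cells (8%, 2.22% to 19.2%). The values were 226 in cell 1-6, 214 in cell 1-10, 60.5 in cell 2-18 and 33.9 in cell 2-15. All 4 lay far above TPM 1 and stood apart from the other cells. Another 6 cells lay between 0 and 0.266, and 40 cells were at 0. All 10 cells with a value above 0 carried first title number 1 or 2. The 25 cells of numbers 3 and 4 were all listed at 0. In the 4 cells above TPM 1, the TPM of Igf2 was 547, 1869, 1302 and 4273, so Igf2 was the higher of the pair in each. The Mir675 row, which lies inside the H19 exon, was above 0 in 3 of those 4 cells, at 1.72 in cell 1-6, 1.56 in cell 1-10 and 0.859 in cell 2-18. Reads of the host exon and of the hairpin cannot be told apart here.

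Cdkn1c, the CDK inhibitor p57, was above TPM 1 in 1 cell (2%, 0.0506% to 10.6%), cell 2-2 at 77.3, and was listed at 0 in 47. Meg3, a noncoding RNA of the Dlk1 domain, was listed at 0 in 50 of 50 cells, which allows a share of up to 6% by the 3-count limit (7.11% by the exact interval). Among all rows, 515 (4.34%) were at 0 in every cell, so a row of this kind was uncommon but not rare.

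**Figure D2:**
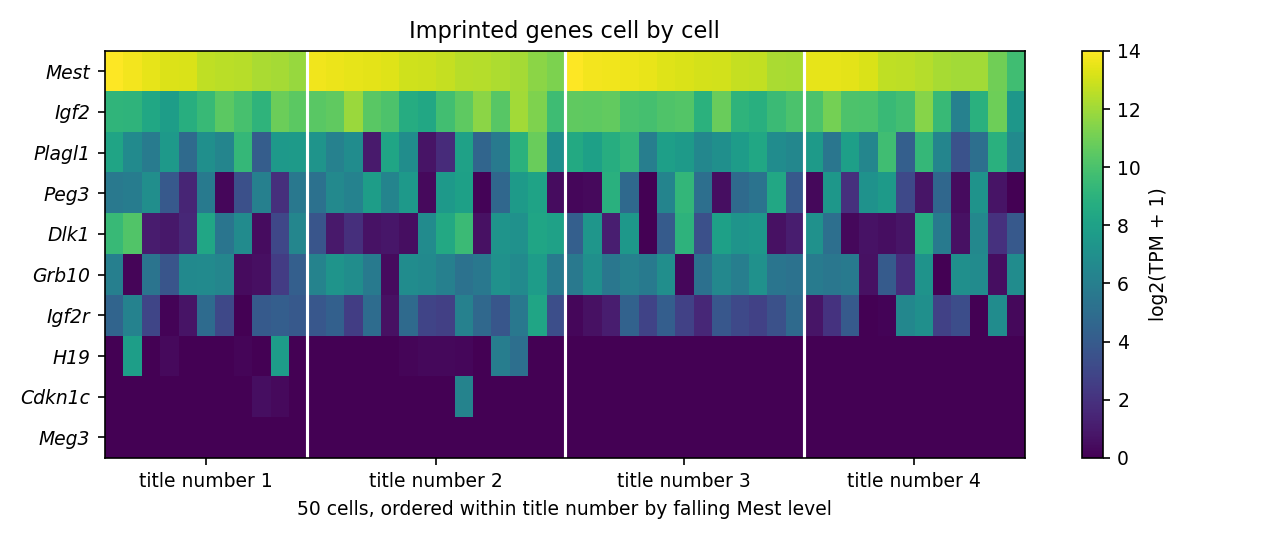
Level of the 10 genes, as log2(TPM + 1), with 1 column for each of the 50 cells. Columns are grouped by first title number and ordered within it by falling Mest level. H19 and Cdkn1c are bright in 4 cells and 1 cell, and Mest is bright in all 50.

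Per cell, a median of 6 of the 10 members was above TPM 1, with 4 in the lowest cells and 8 in the highest. There were 2 cells with 4 members, 13 with 5, 14 with 6, 17 with 7 and 4 with 8. All 5 members known from the paternal copy were above TPM 1 in 26 cells and 4 of them in 20. Of the 5 members known from the maternal copy, a cell had a median of 2, and 3 cells had none. More paternal-copy than maternal-copy members were counted in 50 of 50 cells. As this count sums over genes of different level, it does not compare parental copies of any gene.

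The order of the members by median TPM was Mest, Igf2, Plagl1, Grb10, Peg3, Dlk1 and Igf2r, with H19, Cdkn1c and Meg3 at a median of 0. TPM is scaled by transcript length. Other differences between genes, such as in amplification or read assignment, were not tested, so this order is that of the listed TPM. The first steps held in nearly every cell, since Mest was above Igf2 in 50 cells and Igf2 above Plagl1 in 49. Plagl1 was above Grb10 in 37 cells and below it in 13. Lower down, the order was not that of single cells. Grb10 was above Peg3 in 27 cells and below it in 23. Peg3 was above Dlk1 in 22 cells and below it in 27, against the order of their medians. From Plagl1 to Igf2r, the ranges between the quartiles of neighbours overlapped, so these neighbours are not set apart by their spread over cells.

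Cell-to-cell spread was given as the SD of log2(TPM + 1), on which an SD of 1 stands for a factor of 2. Mest had an SD of 0.84 and Igf2 of 1.13. Among the 304 rows with a median TPM of at least 500, the median SD was 0.71, and Mest ranked 114 and Igf2 59 from the most variable. The quartiles of Mest were 4888 and 11361, a ratio of 2.32. Its highest cell stood 19.6-fold above its lowest and 8.23-fold above its second lowest. Without cell 4-6, which was left out after its values were seen, the SD of Mest was 0.72. The SD of the other rows was not computed without that cell, so this value has no like median beside it.

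Dlk1 was the most variable member, with an SD of 3.31, followed by Peg3 at 2.98, Grb10 at 2.34 and Plagl1 and Igf2r at 2.08 each. Genes found in part of the cells have a large SD on this scale, so Dlk1 was set among the 5892 rows above TPM 1 in 20% to 80% of cells. It ranked 55 among them, where the median SD was 2.29. Peg3 ranked 331, and Igf2r ranked 3810. These rows differ in frequency and level, on which the SD depends.

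Co-expression among members was weak. Over the 7 members above TPM 1 in at least 25 cells, the 21 pairs had Spearman's rho between -0.20 and 0.33 over 50 cells, with a median of 0.08, and 17 pairs were above 0. The median rho of a member with all 6323 rows of this frequency lay between -0.02 (Peg3) and 0.08 (Mest). The points share 1 sample, and each cell has its own unknown depth and total, so these are descriptions without p. Igf2 and Plagl1 had the highest rho, 0.33, which was 0.32 after the number of genes per cell was taken out. Within the 4 first title numbers their rho was positive each time, from 0.31 to 0.50. Of the rows compared with Igf2, 96.6% had a lower rho than Plagl1 and 95.4% a lower rho than Igf2r. Of those compared with Plagl1, 98.2% had a lower rho than Igf2 and 97.7% a lower rho than Dlk1. For Dlk1, 98.3% of rows lay below Plagl1, and for Igf2r, 97.1% lay below Igf2. Plagl1 and Dlk1 had a rho of 0.32 (0.31 with genes per cell taken out), but from -0.01 to 0.52 within title numbers. Igf2 and its clearance receptor Igf2r had a rho of 0.31 (0.29), from -0.15 to 0.48.

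Mest had values near 0 over all cells, which changed between title numbers. Its rho with Igf2 was 0.04 (-0.70 to 0.53 within title numbers), with Plagl1 0.05 (-0.27 to 0.53) and with Peg3 0.09 (-0.29 to 0.32). Leaving out 1 title number at a time gave -0.10 to 0.25 for Mest with Igf2. With Igf2r it was -0.20, the lowest of the 21. Only 2 pairs were positive within all 4 title numbers, Igf2 with Plagl1 and Grb10 with Igf2r (rho 0.13), and no pair was negative in all 4. For H19 and Igf2 the rho was -0.06, and it rests on the 10 cells with H19 above 0, of which 6 were below TPM 1. No value could be given for Dlk1 and Meg3, since Meg3 did not vary.

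**Figure D3:**
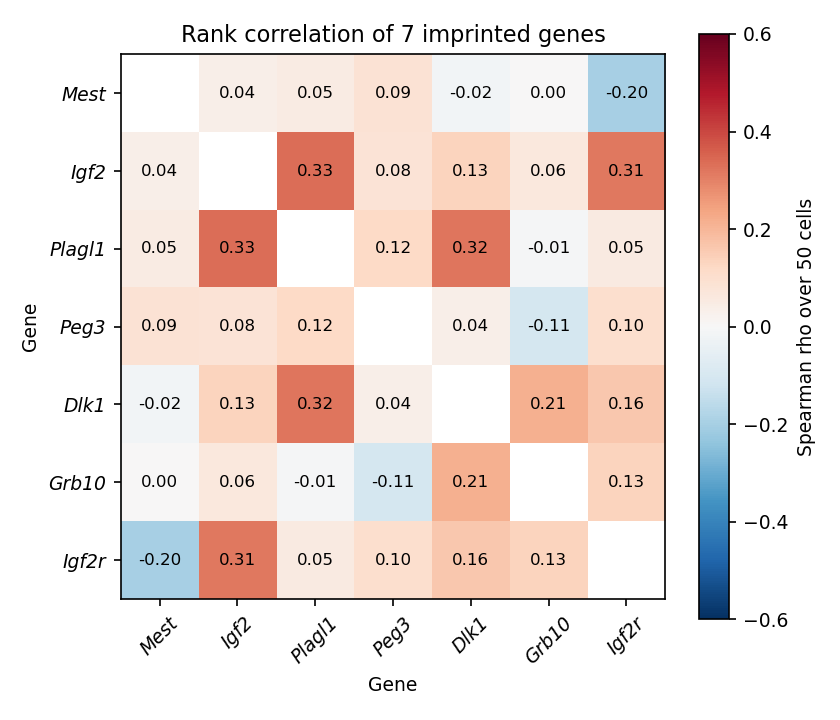
Spearman's rho over 50 cells between the 7 members above TPM 1 in at least 25 cells. Both axes list the genes, and colour and number give rho. The highest values are Igf2 with Plagl1 (0.33), Plagl1 with Dlk1 (0.32) and Igf2 with Igf2r (0.31), and the row of Mest is near 0 or below except for values up to 0.09.

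For each frequent member, the rows most like it were taken as the 5 highest and 3 lowest by rho among 6323 rows above TPM 1 in at least 25 cells. The rows most like Mest were Lpar6 (rho 0.58), a lysophosphatidic acid receptor gene, Csrp1 (0.52), Gbf1 (0.51), Camsap2 (0.51) and Tusc2 (0.51). Rps21 (-0.52) and Romo1 (-0.51) were among the lowest. Rps21 encodes a ribosomal protein, and 81 ribosomal protein rows together took 8.47% to 21.9% of the listed TPM of a cell. Their summed TPM had a rho of -0.31 with Mest, -0.12 with Igf2 and -0.20 with Plagl1. For the other frequent members it was -0.15 (Dlk1), -0.14 (Igf2r), -0.06 (Grb10) and 0.0005 (Peg3). TPM shares a fixed total between genes, and the part of this in the result was not tested.

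The rows most like Igf2 were Itpr2 (0.61), Plxnd1 (0.60), Gm5617 (0.54), Sfrs18 (0.54) and Lars2 (0.52). Itpr2 encodes a calcium release channel and Plxnd1 a semaphorin receptor of endothelial cells. The lowest were Cnbp (-0.52), Rpl18 (-0.47) and Rpl7 (-0.46). The lowest rows of Plagl1 were also ribosomal protein genes, Rpl7 at -0.55, Rpl18 at -0.55 and Rpl3 at -0.54, and its highest was Tdrd7 (0.53). Igf2r was most like Wdr26 (0.55) and Grb10 most like Gaa (0.50), the lysosomal alpha-glucosidase gene. Peg3 was most like Upp1 (0.57), 4931406P16Rik (0.57) and Gpihbp1 (0.56), of which Gpihbp1 encodes the capillary protein that holds lipoprotein lipase, and least like Mgst3 (-0.57). Dlk1 was most like Tcta (0.48) and least like Lsm1 (-0.51).

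Igf2 also moved with the endothelial markers. Its rho with their mean log2 level was 0.47, and 0.24 to 0.79 within title numbers, and over all 50 cells the other 6 members had values of at most 0.25. Plagl1 had a rho of -0.39 with the mean level of the 6 blood markers seen in any cell, but from -0.58 to 0.10 within title numbers. Mest had -0.24 with these blood markers, below 0 within all 4 title numbers (-0.43 to -0.16), and Peg3 had -0.29 (-0.80 to 0.01). Grb10 went the other way at 0.22 (-0.07 to 0.36), while Dlk1 had -0.10, Igf2r -0.07 and Igf2 0.07. With a score of 12 G2 and mitosis genes, the rho of the 7 members ran from -0.15 for Mest (-0.65 to 0.24 within title numbers) to 0.24 for Plagl1 (0.10 to 0.35). Dlk1 had 0.20 and Igf2 0.05. With Runx1, the induced factor, the rho ran from -0.27 for Peg3 (-0.55 to 0.36 within title numbers) to 0.20 for Igf2r (-0.32 to 0.65), and Mest had 0.17 (-0.07 to 0.34).

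At the Dlk1 domain, the other measured genes were rare. Rtl1, a retrotransposon-derived gene of the paternal copy, was above TPM 1 in 2 cells and the noncoding RNA Mirg, of the maternal copy, in 3. Dlk1 was above TPM 1 in each of these. Dlk1 was thus found in 36 cells while the maternal-copy RNAs of its domain were found in 0 (Meg3) and 3 (Mirg).

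At the Igf2r domain, the antisense RNA Airn, known to be read from the paternal copy, was above TPM 1 in 30 cells with a median TPM of 31.9. Airn overlaps 28354 bases of Igf2r on the opposite strand. How reads in the shared stretch were assigned was not stated, and without strand they cannot be told apart. Both rows were above TPM 1 in 23 cells, Igf2r alone in 16, Airn alone in 7 and neither in 4, and their rho was 0.05. The end of Mest overlaps Copg2 by 912 bases on the opposite strand, and Copg2 was above TPM 1 in 13 cells. In the Cdkn1c domain, Kcnq1 was above TPM 1 in 2 cells and Slc22a18 in none of 50, while Cd81 was found in 50, Nap1l4 in 48, Tssc4 in 39 and Osbpl5 in 9.

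The members were set within wider lists of imprinted genes. Of the 20 listed paternal-copy genes with a row, 14 reached 25 cells, and of the 15 that are no members, 9 (60%) did. Of 9 maternal-copy rows, 3 (33.3%) did, namely Grb10, Igf2r and Asb4. Of the 11 listed maternal-copy genes that are no members, only 4 had a row, and 1 of these (25%) did. Of 19 rows whose imprinting depends on tissue or isoform, 12 (63.2%) did. Over all 48 rows the share was 60.4%, and 57.9% over the 38 that are no members, close to the 53.2% of all rows.

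Among the paternal-copy genes that are no members, Sgce (median TPM 223) was above TPM 1 in 50 cells and its neighbour Peg10, a retrotransposon-derived gene, in 48. Impact was found in 47 cells, Slc38a4, an amino acid transporter gene, in 44, Snrpn in 43 and Mcts2 in 42. Ndn was found in 35 cells and Zdbf2 in 36. Nnat was found in 2 cells, Sfmbt2 in 5 and Zrsr1 in 7. Cd81 (median TPM 1617) and Gnas (1225), whose imprinting is limited to certain tissues or promoters, were each found in all 50 cells. None of these had the level of Mest.

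**Figure D4:**
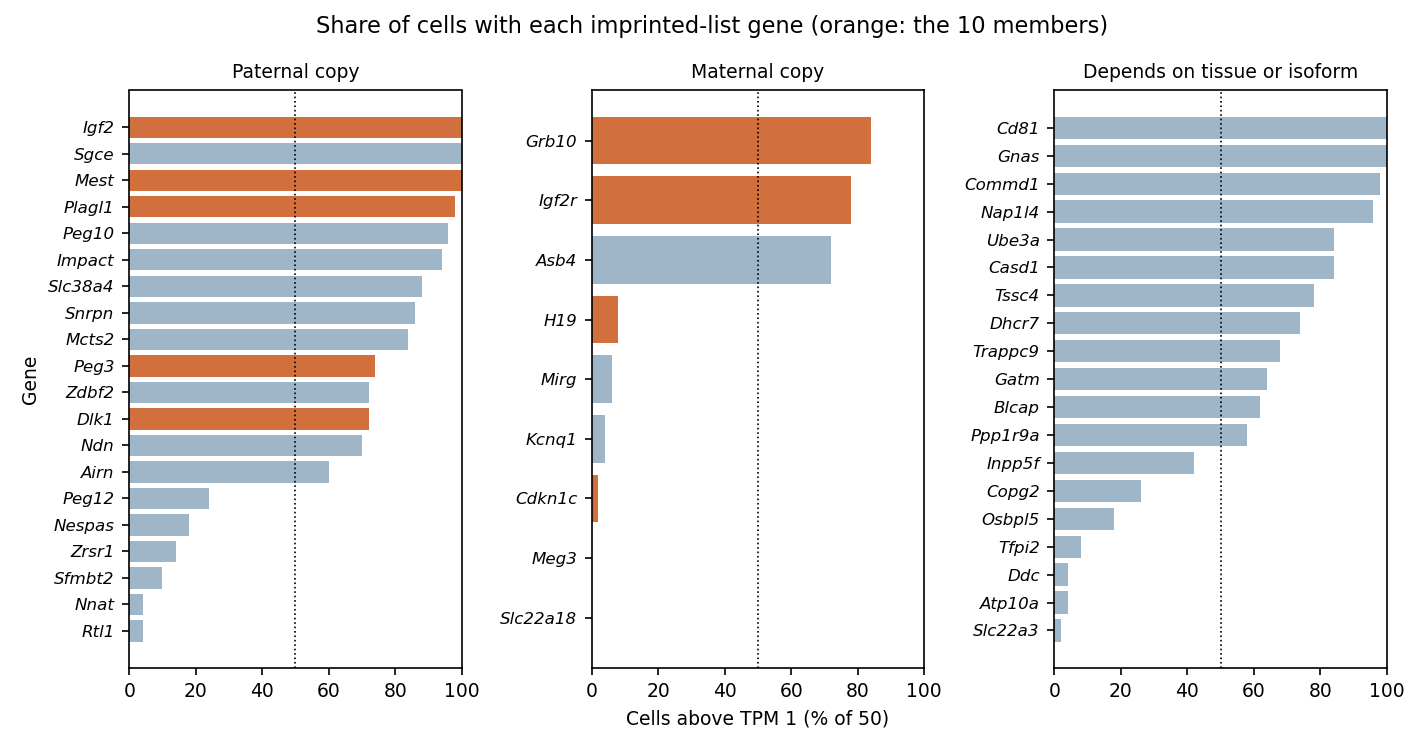
Share of the 50 cells above TPM 1 for each imprinted-list gene with a row, in panels by the copy from which it is known to be expressed. Bars start at 0, orange bars are members and the dotted line is at 50%. In the middle panel 3 of 9 genes pass the line, and in the left panel 14 of 20.

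Partners of the members were also described. Igf2 acts through Igf1r and Insr, which were above TPM 1 in 37 cells each with median TPM of 5.33 and 10.9. Grb2 and Shc1, adaptors of these receptors, were found in 47 cells each. Igfbp4, a secreted binding protein of IGFs, was above TPM 1 in 50 cells with a median of 770, and its rho with Igf2 was 0.32 (-0.15 to 0.55 within title numbers). Igfbp3 was found in 34 cells with a highest TPM of 5220, and Igf1 in 39 with a median of 27.1. In all, 8 of 11 rows (72.7%) of this IGF list reached 25 cells, beside 53.2% of all rows. Of the genes for proteins that bind Igf2 mRNA, Igf2bp1 was found in 46 cells, Igf2bp2 in 48 and Igf2bp3 in 43. Hmga1 and Hmga2 were found in 50 cells each, Lin28b in 24 and Lin28a in 5. Of these 7 rows, 5 (71.4%) reached 25 cells, beside 53.2% of all rows.

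Dlk1 is known to act on Notch signalling, and Notch1 was above TPM 1 in 42 cells, Notch4 in 39, Notch2 in 29 and Notch3 in 13. Dlk1 and Notch1 were both above TPM 1 in 31 cells, and their rho was 0.06. Cdkn1c belongs to the CIP/KIP family, of which Cdkn1a (p21) was above TPM 1 in 50 cells at a median of 779 and Cdkn1b (p27) in 43 at a median of 10.5. Plagl1 was far more frequent than its relatives Plag1, in 11 cells, and Plagl2, in 24. All 10 rows of the imprint maintenance list reached 25 cells, beside 53.2% of all rows, and 2 of them, Zfp445 (median TPM 0.852) and Uhrf1 (1.08), were at exactly 25. Among them Trim28 was found in 47 cells, the KRAB zinc finger gene Zfp57 in 40 and Dnmt1, which copies methylation at replication, in 29.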

How the data were processed

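Single iRunx1-iHECs were profiled by single-cell RNA-seq of polyA RNA, with 50 cells in 1 group. Per the submitters' processing notes and the study's methods, the authors amplified cDNA with a whole-transcriptome kit, aligned reads to mm10 with HISAT2 2.1.0, used SAMtools 0.1.19 and estimated the deposited TPM per gene with StringTie 1.3.4. The annotation, the rule for keeping rows, the strand setting and molecular identifiers are not given in the sources used here. Depth is unknown from TPM. The exact intervals and the 3-count limit hold counting error between cells and nothing else.

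TPM above 1 counted as expressed. Levels were medians over cells, spread was the SD of log2(TPM + 1), with a pseudocount of 1, and co-expression was Spearman's rho over cells, with a partial rho given genes per cell. Named genes were the members, the listed imprinted and partner genes, and rows from the 5 of highest and 3 of lowest rho of each frequent member. Not all of these are named, and 1 is not reported here. Cells are not replicates, so no test was made. Values were computed with python 3.11.15, pandas 2.3.3, numpy 2.4.6 and scipy 1.17.1 and plotted with matplotlib 3.10.9. Only the rank correlations were checked on simulated data, and these data had no tied values. Gene positions came from GENCODE on GRCm38 and sequences from RefSeq on GRCm38.p6, where 8 of 10 members had a promoter window. The members and gene lists were chosen with earlier results of these data known. Listed genes with no row, among them 10 pluripotency markers, were not analysed here. No cell was left out except in the alternatives, which were TPM above 0, 5 or 10, cells with fewer than 5000 genes left out, each first title number left out, TPM rescaled without ribosomal protein rows or without Mest, a pseudocount of 0.1, partial rho and Pearson's r. Leaving out cell 4-6 alone was added after the data were seen.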

Additional observations from a re-analysis of the deposited data

How the results depend on the processing

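The Mest median and SD, the Igf2 and H19 rho and the number of imprinted-list rows above TPM 1 in at least 25 cells (29) stayed within the spread over first title numbers, or within 1.5 times for the count, under all alternatives run except those named next. Counting every value above 0 gave a median of 7 members per cell and a median share of 97% over members, and TPM above 10 gave 5 and 60%. Leaving out first title number 4 gave 7 members, and the range over all 4 such exclusions was 6 to 7. Pearson's r of log2 values between Igf2 and H19 was 0.14 in place of a rho of -0.06, which rests on the 10 cells with H19 above 0. The cause was not tested. The spread used for this rho came from title numbers 1 and 2 alone (-0.21 and -0.01), as H19 did not vary in numbers 3 and 4. It is therefore a weak measure of how stable this rho is. Of the single members, the shares of 6 moved beyond their interval at TPM above 0 (Plagl1, Peg3, Dlk1, Grb10, Igf2r and H19) and of 2 at TPM above 10 (Dlk1 to 56% and Igf2r to 48%). Without first title number 2, Plagl1 was at 100% and Cdkn1c at 0%. The medians of single members stayed within the SD of their 4 medians by title number, which for Peg3 and Dlk1 is wide. The Dlk1 median of 16.5 became 29.8 without title number 4 and 33.7 without cells of fewer than 5000 genes. No rho of Dlk1 and Meg3 could be computed because Meg3 was at 0 in every cell, and a correlation over the 4 cells with both Igf2 and H19 above TPM 1 was not computed, as there are too few. No paired analysis was possible because the series holds 1 group. Depth, unknown from TPM, limits what a value of 0 shows.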
